A study of Mus musculus with 15 samples.

Results

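The mu, pi and other glutathione transferases described here are 10 genes measured in mouse lung: the mu class genes Gstm1, Gstm2, Gstm3, Gstm4 and Gstm5, the pi class gene Gstp1, the omega class gene Gsto1, the theta class genes Gstt1 and Gstt3, and the microsomal gene Mgst1. They were found through every probe whose RefSeq accession leads to one of these symbols, which gave 14 of the 56605 probes on the array. Gstm1, Gstm5, Gsto1 and Mgst1 had 2 probes each and the other 6 genes had 1 each. All 14 were among the 43154 probes kept for testing, were well above background on all 15 arrays, and had no saturated spot. For each gene with 2 probes, the one with the higher mean over the 15 arrays stands for the gene below and the other is called its second probe.

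Lungs came from mice of the outbred stock Crlj:CD1(ICR), all female and labelled as 11 weeks old. The treated groups ate powdered diet with 20, 500, 2500 or 5000 ppm permethrin for 7 days, and the control group ate the diet with 0 ppm, with 3 mice a diet and 1 array a mouse. Permethrin is a synthetic pyrethroid insecticide, and the design asks what it does to lung RNA at each dietary level. The arrays were 1-colour Agilent mouse expression arrays, and the number of mice limits the precision of every comparison.

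Glutathione transferases join the tripeptide glutathione to reactive, electron-poor compounds, so that these can be pumped out of the cell and degraded. The mu, pi and theta classes are soluble enzymes, omega enzymes carry out mainly reductions with an active-site cysteine, and Mgst1 sits in the membranes of the endoplasmic reticulum and the outer mitochondrial membrane. Several family members are textbook targets of Nrf2, a transcription factor that binds antioxidant response elements in response to electrophiles, and in lung they are abundant in airway epithelium.

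The mu genes lie side by side on chromosome 3, in the order Gstm5, Gstm7, Gstm6, Gstm3, Gstm2, Gstm1 and Gstm4 in RefSeq's GRCm38.p6 annotation. Gstp1 and Gsto1 are on chromosome 19, Gstt1 and Gstt3 on chromosome 10 and Mgst1 on chromosome 6. RefSeq promoter windows (GRCm38.p6, 250 bases before to 50 after a start site, 300 in all) were found for all 10 genes. Those of Gstm1 (the second of its windows) and Gstm3 are shown because these genes had the most alike levels across the mice. The capitals mark the longest run of letters that any windows of different members share, 16 bases, which begins 19 bases after the start site in Gstm1 and 10 bases after it in Gstm3, counting the start site as 0.
Gstm1, chr3:108017769-108018068, minus strand: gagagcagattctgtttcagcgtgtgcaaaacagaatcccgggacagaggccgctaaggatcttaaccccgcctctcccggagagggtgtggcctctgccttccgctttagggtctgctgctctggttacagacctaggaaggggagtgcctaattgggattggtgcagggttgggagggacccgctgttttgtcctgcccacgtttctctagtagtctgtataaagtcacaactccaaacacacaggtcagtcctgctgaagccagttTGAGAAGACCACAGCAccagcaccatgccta
Gstm3, chr3:107969125-107969424, minus strand: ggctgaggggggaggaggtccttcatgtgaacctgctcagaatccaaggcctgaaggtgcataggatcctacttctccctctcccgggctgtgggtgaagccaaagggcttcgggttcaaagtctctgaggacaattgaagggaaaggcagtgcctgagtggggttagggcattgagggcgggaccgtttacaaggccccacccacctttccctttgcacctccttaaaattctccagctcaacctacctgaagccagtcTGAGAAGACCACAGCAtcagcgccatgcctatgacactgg

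Windows were also searched on both strands for the antioxidant response element core TGACNNNGC and the xenobiotic response element core GCGTG. The antioxidant core was present in 12.4% of the 32851 windows of all genes and, among the members, in the windows of Mgst1 and Gstm5. These are shown because they carry the match, which is in capitals. It begins at position -56 on the minus strand in the first window of Mgst1 and at position -42 on the plus strand in Gstm5. The windows of Gstm1, Gstm2, Gstm3, Gstm4, Gstp1, Gsto1, Gstt1 and Gstt3 did not hold these letters. The xenobiotic core was present in 32.4% of all windows and, among the members, in those of Gstm1, Gstm5 and Gstp1. In Gstm5 the xenobiotic core at position -38 overlaps the antioxidant core.
Mgst1, chr6:138140277-138140576, plus strand: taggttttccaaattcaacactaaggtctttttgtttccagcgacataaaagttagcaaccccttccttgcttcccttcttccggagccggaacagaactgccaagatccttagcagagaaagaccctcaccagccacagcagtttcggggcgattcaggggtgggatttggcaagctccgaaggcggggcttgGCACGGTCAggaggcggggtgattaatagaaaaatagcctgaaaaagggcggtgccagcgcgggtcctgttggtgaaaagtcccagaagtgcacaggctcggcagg
Gstm5, chr3:107895604-107895903, plus strand: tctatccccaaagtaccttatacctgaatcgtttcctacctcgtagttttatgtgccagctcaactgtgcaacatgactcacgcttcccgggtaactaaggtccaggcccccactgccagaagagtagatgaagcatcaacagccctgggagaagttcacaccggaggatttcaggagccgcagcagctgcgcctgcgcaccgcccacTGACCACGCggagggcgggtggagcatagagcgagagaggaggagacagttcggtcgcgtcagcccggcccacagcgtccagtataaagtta

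Across arrays, 72.05% to 87.62% of probes were well above background. There were 2 slides. The control and 20 ppm mice and 500 ppm mice 1 and 2 were on slide 1, and slide 2 carried 500 ppm mouse 3 and the 2500 and 5000 ppm mice. Among the diets, 500 ppm alone spans both slides, so a separation of slide from dose for 2500 and 5000 ppm against control rests on the single array of 500 ppm mouse 3. Some arrays stood apart from the rest. The arrays of 500 ppm mouse 3 and 2500 ppm mouse 3 carried a different extraction status in their headers and had scores of 180.4 and 71.49 on the first principal component of all kept probes (34.76% of the variance), against at most 20.61 elsewhere. The arrays of 20 ppm mouse 1 and control mouse 1 had scores of -102.4 and -110.7 on the second (22.42%), against -29.48 or higher elsewhere. The lung label was checked with Sftpc, Ager and Scgb1a1, markers of alveolar type 2, alveolar type 1 and club cells, which were well above background on all 15 arrays. In whole lung, fewer cells of a type and less RNA per cell cannot be told apart.

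At 5000 ppm, 5 of the 10 members had all 3 treated mice above all 3 controls: Gstm1, Gstm2, Gstm3, Gsto1 and Mgst1. The other 5 overlapped with the controls. None of the 10 passed an adjusted p of 0.05 at this dose (limma with Benjamini-Hochberg adjustment over 43154 probes), where 13 probes passed as higher and 1 as lower (0.0324%). All 3 treated mice lay above all controls in 11.9% of all kept probes and in 6 of the 14 member probes. The second probes of Gstm1 and Gsto1 overlapped with the controls. On the trend over the 5 diets, Gstm1 rose and no other member passed, where 51 of all probes passed (0.118%), 33 as higher and 18 as lower. An F test over all 5 diets passed in 15 probes (0.0348%), none of them a member.

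**Figure D1:**
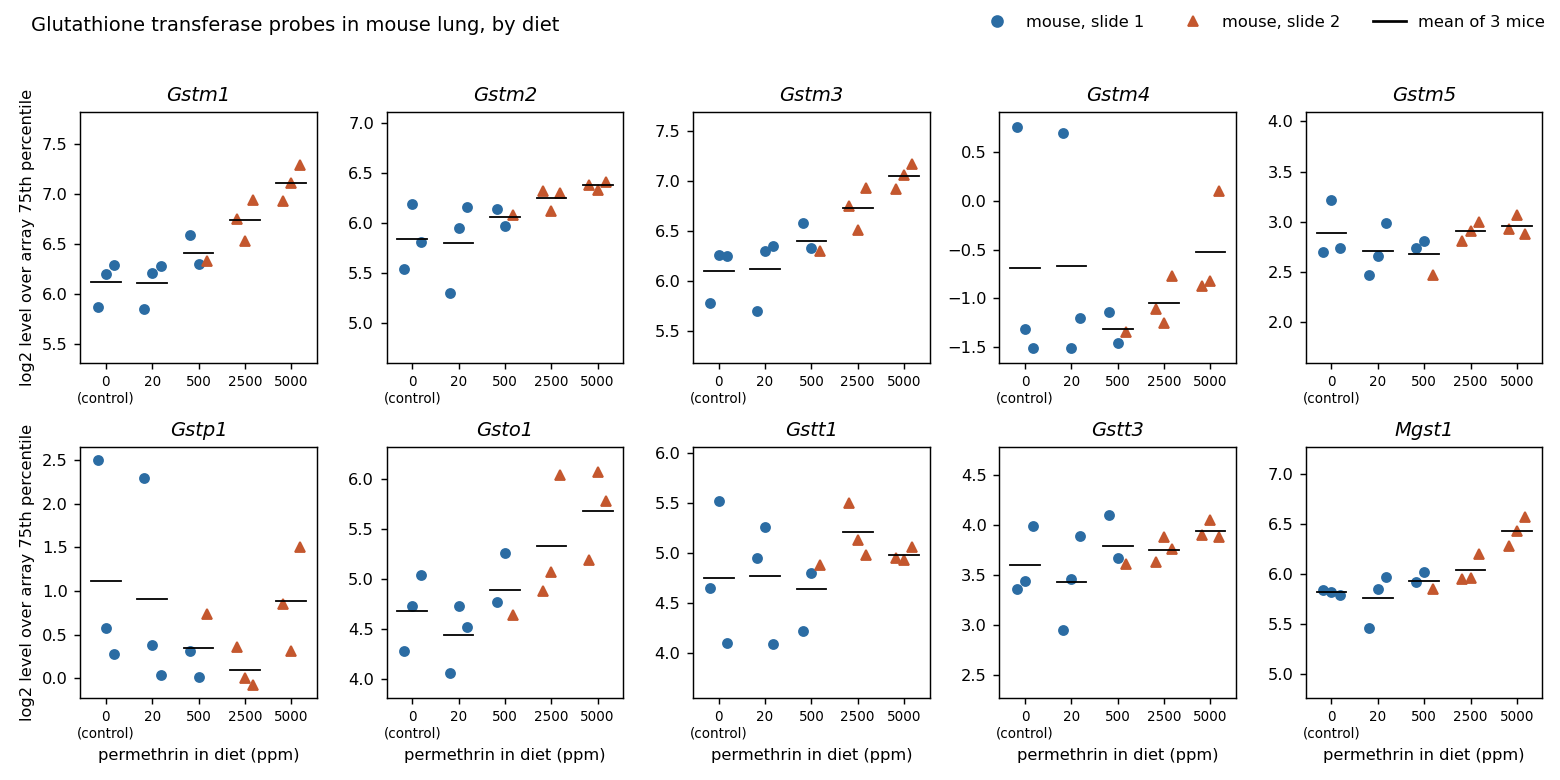
Level of each member in each mouse by diet, as log2 signal relative to the 75th percentile of its array, with the diet in ppm permethrin on the horizontal axis. Each panel shows the probe with the higher mean, circles are slide 1, triangles slide 2 and bars the mean of 3 mice. Gstm1 and Gstm3 climb in step over the 3 highest doses, with all 5000 ppm mice at or above 6.92, while Gstm4 and Gstp1 are highest in 20 ppm mouse 1 and control mouse 1.

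Gstm1 encodes a mu class enzyme that conjugates epoxides and quinones. Its level, as log2 signal relative to the 75th percentile of the array (the scale used throughout), was 6.92, 7.11 and 7.28 in the 5000 ppm mice and 5.86, 6.20 and 6.29 in the control mice. In the doses between, it was 5.84, 6.21 and 6.28 at 20 ppm, 6.59, 6.30 and 6.33 at 500 ppm and 6.75, 6.53 and 6.93 at 2500 ppm. The control and 20 ppm mice covered the same range, and every mouse at 500 ppm and above lay over that range. At 500 ppm this was by a hair, with the lowest mouse at 6.297 and the highest control at 6.288. The median log2 difference of all probes at 500 ppm was 0.111, and 68.3% were positive. Mice at 500 and 2500 ppm overlapped with each other, as did those at 2500 and 5000 ppm.

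The mean of Gstm1 was 7.10 ± 0.18 at 5000 ppm and 6.12 ± 0.22 in controls (SD, n = 3 each), a log2 difference of 0.99 ± 0.18 (SE), or 1.99-fold (95% interval 1.51 to 2.61). This was larger than the spread between mice, but its limma adjusted p was 0.166, at rank 33 of all probes by p. Against control, the log2 differences were -0.003 at 20 ppm, 0.29 at 500 ppm and 0.62 at 2500 ppm, with limma adjusted p of 1, 0.945 and 0.350. The contrasts share the same 3 control mice. The slope was 0.26 ± 0.04 (SE) per dose rank, with a limma adjusted p of 0.0294 and rank 39 of all probes. The second probe of Gstm1 showed no such slope, at -0.002 per dose rank (limma adjusted p = 0.998). Its log2 difference from control was -0.48 at 500 ppm, -0.47 at 2500 ppm and 0.47 at 5000 ppm. On this probe control mouse 1 read 3.92, against 1.55 and 1.51 in the other controls. Without control mouse 1 the log2 difference at 500 ppm was 0.32. With the mean of both probes the slope was 0.13 and the limma adjusted p 0.637, so the call rests on the first probe. Without the 4 arrays that stood apart the slope was 0.21 and the limma adjusted p 0.0529. Left out 1 at a time, each control mouse, each 5000 ppm mouse, 20 ppm mice 2 and 3, 500 ppm mouse 2 and 2500 ppm mouse 1 cost Gstm1 the call, with adjusted p up to 0.148 (without 5000 ppm mouse 3).

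Gstm3 encodes another mu class enzyme, and its probe followed that of Gstm1 closely. It read 6.92, 7.06 and 7.17 in the 5000 ppm mice and 5.78, 6.26 and 6.26 in the control mice. It read 5.70, 6.30 and 6.35 at 20 ppm, 6.58, 6.33 and 6.30 at 500 ppm, and 6.75, 6.51 and 6.93 at 2500 ppm. All mice at 500, 2500 and 5000 ppm lay above all controls, as for Gstm1. The log2 difference at 5000 ppm was 0.95 ± 0.20 (SE), 1.93-fold with a 95% interval of 1.42 to 2.63 and a limma adjusted p of 0.333. The slope was 0.25 per dose rank with a limma adjusted p of 0.0708, so neither passed.

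Over the 15 arrays the levels of Gstm1 and Gstm3 had a Pearson r of 0.989, and their deviations from the diet means one of 0.963. Gstm1 and Gstm3 are closely related paralogs, and how far each probe reads the other gene's RNA was not tested. The 2 probes therefore may not be separate measurements. Both were lowest in 20 ppm mouse 1 and control mouse 1.

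Gstm2 encodes a mu class enzyme whose human counterpart conjugates the dopamine product aminochrome. It read 6.38, 6.32 and 6.41 in the 5000 ppm mice and 5.53, 6.18 and 5.81 in the control mice. It read 5.30, 5.95 and 6.16 at 20 ppm, 6.13, 5.96 and 6.08 at 500 ppm, and 6.32, 6.12 and 6.29 at 2500 ppm. Only at 5000 ppm did all treated mice lie above all controls, and the gap to the highest control was small beside the spread of the controls. The log2 difference at 5000 ppm was 0.53 ± 0.22 (SE), 1.44-fold, with a limma adjusted p of 0.979, and the slope had an adjusted p of 0.424.

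Gstm4 and Gstm5 are also mu class genes, and Gstm5 is the mouse counterpart of human GSTM3. In neither did all 3 mice of a dose lie above or below all 3 controls. Gstm4 read -0.87, -0.82 and 0.11 in the 5000 ppm mice and 0.76, -1.32 and -1.51 in the control mice, so the 5000 ppm mice lay above control mice 2 and 3 and below control mouse 1. It averaged -0.53 ± 0.55 at 5000 ppm and -0.69 ± 1.26 in controls (SD, n = 3 each), a log2 difference of 0.16 with a 95% interval of -1.17 to 1.49. Without control mouse 1 the log2 difference was 0.88. Gstm5 averaged 2.95 ± 0.10 at 5000 ppm and 2.88 ± 0.29 in controls (SD, n = 3 each), a log2 difference of 0.07 with a 95% interval of -0.32 to 0.47. The second probe of Gstm5 gave a log2 difference of -0.45 with a 95% interval of -1.40 to 0.50. The interval of Gstm4 is wide enough to hold the changes of Gstm1 and Gstm3, and those of Gstm5 are not.

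Mgst1 encodes a membrane enzyme that, beside conjugation, reduces lipid hydroperoxides. Its level was 6.28, 6.43 and 6.57 in the 5000 ppm mice and 5.84, 5.83 and 5.80 in the control mice. It was 5.46, 5.85 and 5.97 at 20 ppm, 5.93, 6.03 and 5.85 at 500 ppm, and 5.96, 5.96 and 6.20 at 2500 ppm. The 3 controls were within 0.05 of each other, and each 5000 ppm mouse was also above every 2500 ppm mouse. The log2 difference at 5000 ppm was 0.61 ± 0.15 (SE), 1.53-fold with a 95% interval of 1.21 to 1.92 and a limma adjusted p of 0.583.

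The second probe of Mgst1 gave 5.23, 5.41 and 5.54 in the 5000 ppm mice and 5.17, 4.78 and 4.75 in the control mice, again with no overlap. Its log2 difference was 0.50 ± 0.16 (SE), or 1.41-fold, with a limma adjusted p of 0.893. Both probes of Mgst1 therefore gave the same direction and a like size at 5000 ppm. At 500 ppm they did not, with a log2 difference of 0.11 for the first probe and -0.01 for the second, where the median of all probes was 0.11.

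Gsto1 encodes an omega class enzyme that reduces dehydroascorbate and methylated arsenic compounds. It read 5.19, 6.07 and 5.79 in the 5000 ppm mice and 4.28, 4.74 and 5.04 in the control mice. It read 4.07, 4.73 and 4.53 at 20 ppm, 4.77, 5.26 and 4.64 at 500 ppm, and 4.88, 5.07 and 6.04 at 2500 ppm. At 2500 and 5000 ppm the mice of a diet differed more than for Gstm1, Gstm2, Gstm3 and Mgst1, with 2500 ppm mouse 3 and 5000 ppm mouse 2 highest. The log2 difference at 5000 ppm was 0.99 ± 0.34 (SE), 1.99-fold with a 95% interval of 1.20 to 3.30 and a limma adjusted p of 0.936. The second probe of Gsto1 gave a log2 difference of 0.47 ± 0.26 (SE), its 5000 ppm mice overlapped the controls, and its limma adjusted p was 0.979.

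The first probes of Gsto1 and Gstm1 were set beside the mean levels of cell type marker lists, mainly those of 4 cell types. The mean level of 7 club cell markers was 6.62, 8.10 and 6.73 in the 5000 ppm mice and 6.68, 6.23 and 7.05 in the control mice. It was highest, at 8.52, in 2500 ppm mouse 3, and was 7.79 in 500 ppm mouse 2, which was also the highest 500 ppm mouse for Gsto1. Over the 15 arrays Gsto1 had a Pearson r of 0.679 with these club cell markers and 0.897 with 7 ciliated cell markers, and Gstm1 had 0.316 and 0.704. For deviations from the diet means, which leave out shared differences between diets, the r was 0.816 and 0.840 for Gsto1 and 0.229 and 0.372 for Gstm1. The ciliated markers averaged 2.34 to 2.98 in the 5000 ppm mice and 2.19 to 2.37 in the control mice. Levels of 5 endothelial markers ran the other way, with an r of -0.819 for Gsto1 and -0.669 for Gstm1, and -0.809 and -0.655 for the deviations. They averaged 2.84 to 3.31 in the 5000 ppm mice and 3.01 to 3.78 in the control mice, but did not move as one. At 5000 ppm the log2 differences were -0.70 for Tek, -0.65 for Pecam1, -0.20 for Cdh5, 0.02 for Cldn5 and 0.36 for Vwf. With 6 alveolar type 1 markers Gstm1 had an r of 0.562, and 0.527 for the deviations. These markers averaged 6.22 to 6.40 in the 5000 ppm mice and 5.61 to 6.32 in the control mice. The second probe of Gstm1 ran opposite, with an r of 0.717 with endothelial and -0.532 with alveolar type 1 markers. That of Gsto1 had 0.676 with club, 0.741 with ciliated and -0.308 with endothelial markers (-0.036 for the deviations). In control mouse 1 and 20 ppm mouse 1, endothelial markers were highest (3.78 and 3.79) and alveolar type 1 markers lowest (5.61 and 5.81). All markers of these 4 lists were above background on every array. Of the other lists, adipocyte markers had an r of 0.418 with Gsto1 (0.657 for the deviations). Alveolar type 2 markers had -0.299 with Gstm1 (0.458 for the deviations). Other members also had high r, with 0.796 for Gstm2 and alveolar type 1 markers and 0.788 for Gstp1 and endothelial markers. The part of any marker list in the member values was not tested. At 5000 ppm none of the 71 marker genes of 13 cell types passed the threshold, and the lowest limma adjusted p was 0.369, for the club cell gene Aldh1a1.

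Gstp1 encodes a pi class enzyme of lung epithelium. It read 0.85, 0.31 and 1.50 in the 5000 ppm mice and 2.50, 0.57 and 0.28 in the control mice. It read 2.29, 0.38 and 0.04 at 20 ppm, 0.31, 0.01 and 0.73 at 500 ppm, and 0.35, 0.00 and -0.07 at 2500 ppm. The groups overlapped at every dose. The log2 difference at 5000 ppm was -0.23 with a 95% interval of -1.57 to 1.11, and 0.47 when 20 ppm mouse 1 and control mouse 1 were left out. Mice have a near-identical neighbouring gene, Gstp2, and how far the Gstp1 probe reads it was not tested. The probe named Gstp2 was far brighter, with a mean level of 7 over the 15 arrays against 0.67 for the Gstp1 probe. It gave a log2 difference of 0.49 ± 0.22 (SE) at 5000 ppm, with overlapping groups and a limma adjusted p of 0.979. The values of the Gstp1 probe therefore do not stand for the pi class as a whole.

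Gstt1 and Gstt3 are theta class genes, whose enzymes use an active-site serine and act on small halogenated compounds. Gstt1 read 4.95, 4.93 and 5.06 in the 5000 ppm mice and 4.65, 5.52 and 4.10 in the control mice. Gstt3 read 3.90, 4.05 and 3.87 in the 5000 ppm mice and 3.36, 3.44 and 3.99 in the control mice. In both, the treated mice lay inside or at the upper edge of a wider control range. The log2 differences were 0.22 with a 95% interval of -0.55 to 0.99 for Gstt1 and 0.34 with a 95% interval of -0.18 to 0.86 for Gstt3. The intervals do not show that either gene was unaffected.

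**Figure D2:**
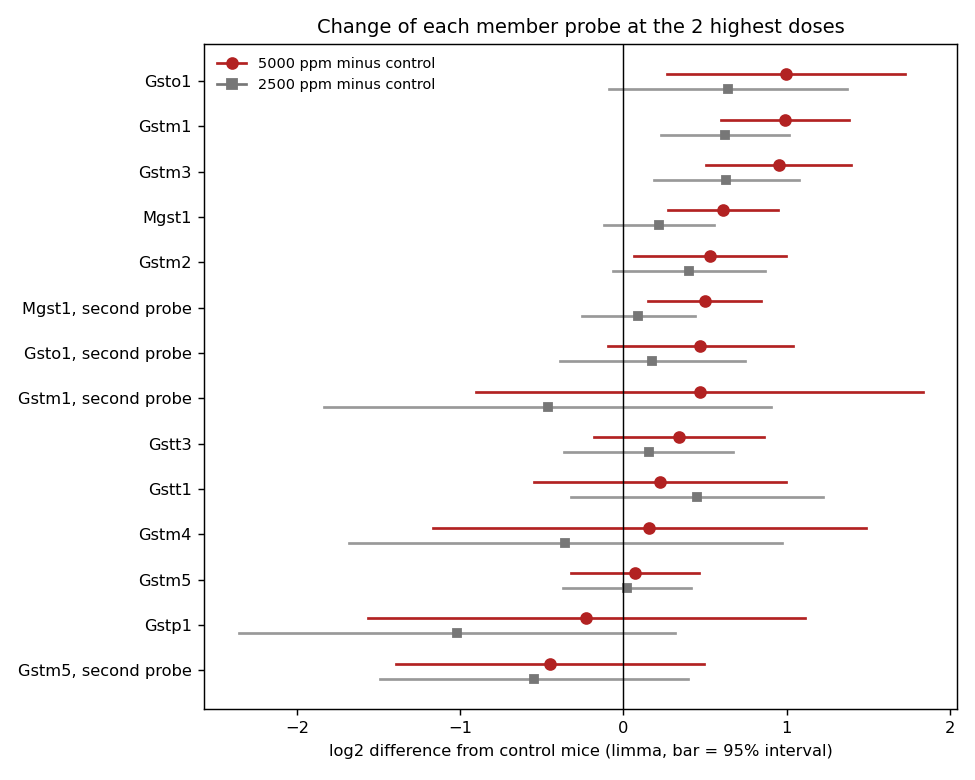
Log2 difference from the control mice for each of the 14 member probes, with red circles for 5000 ppm and grey squares for 2500 ppm and bars for the 95% interval of the limma fit (n = 3 mice a diet). The intervals of Gsto1, Gstm1, Gstm3, Gstm2 and both Mgst1 probes lie above 0 at 5000 ppm. Those of Gstm4, Gstp1 and the second probe of Gstm1 span more than 2 log2 units.

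Several member probes separated the arrays of 20 ppm mouse 1 and control mouse 1 from the other 13, whatever the diet. The second probe of Gstm1 read 4.0 in 20 ppm mouse 1 and 3.92 in control mouse 1, against 1.51 to 3.61 elsewhere. Gstm4 read 0.70 and 0.76 in the same mice, against -1.51 to 0.11 elsewhere. The second probe of Gstm5 read 1.14 and 1.26 there, against -0.60 to 0.04 elsewhere. Gstp1 had the same pattern, and 5000 ppm mouse 3 was the next highest mouse for Gstp1, Gstm4 and the second probe of Gstm1.

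The first probes of Gstm1, Gstm2, Gstm3, Gsto1 and Gstt3 had their lowest 2 arrays in those same mice. For Gstm1, the probe that stands for the gene read 5.84 and 5.86 there, against 6.19 to 7.28 elsewhere. The 2 probes of Gstm1 therefore ran opposite ways in these arrays, with a Pearson r of -0.15 over all 15 arrays and 0.656 without them. At 5000 ppm the second probe of Gstm1 gave a log2 difference of 0.47 with a 95% interval of -0.90 to 1.84, which holds both 0 and the value of the first. Without 20 ppm mouse 1 and control mouse 1, the log2 differences at 5000 ppm were 0.86 for the first probe of Gstm1, 1.26 for its second probe, 0.88 for Gstm4, 0.79 for Gstm3, 0.62 for Mgst1 and 0.38 for Gstm2, with limma adjusted p from 0.434 to 0.925. What sets these arrays apart was not tested.

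**Figure D3:**
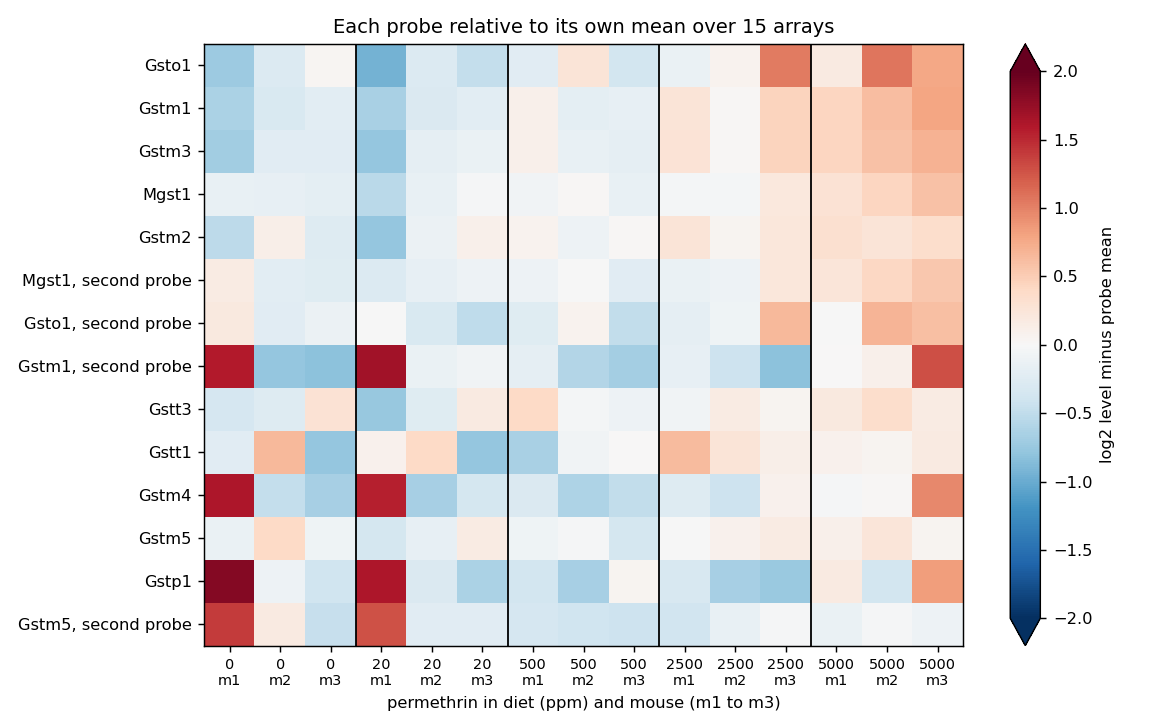
Level of each member probe in each of the 15 arrays minus that probe's own mean, in log2 units, with arrays ordered by diet (ppm permethrin) and mouse and red for above the mean. Gstm1, Gstm3, Mgst1 and Gsto1 turn red towards 5000 ppm. The second probes of Gstm1 and Gstm5 and the probes of Gstm4 and Gstp1 are reddest in 20 ppm mouse 1 and control mouse 1. All of these but the second probe of Gstm5 are also red in 5000 ppm mouse 3.

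Slide 1 held 3 control, 3 20 ppm and 2 of the 500 ppm mice, and within it Gstm1 differed from control by -0.003 at 20 ppm and by 0.33 at 500 ppm on the log2 scale (limma adjusted p of 0.989 at 500 ppm). Slide 2 held 500 ppm mouse 3 and the 2500 and 5000 ppm mice, and within it the log2 difference of 5000 over 2500 ppm was 0.37 for Gstm1, 0.32 for Gstm3 and 0.39 for Mgst1, with limma adjusted p of 0.784, 0.792 and 0.761. These within-slide differences were positive, apart from 20 ppm, and none passed. For 5000 over 2500 ppm, 9 of the 10 members were positive, where 62.3% of all genes were. Gstm2 was at 0.13 and Gstt1 at -0.23. With slide as a fixed block the 5000 ppm difference of Gstm1 was 1.10 (limma adjusted p = 0.0465), a correction that rests on 500 ppm mouse 3 alone, and with slide as a random block it was 1.03 (limma adjusted p = 0.863).

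At the lower doses, 3 of the 10 members at 2500 ppm (Gstm1, Gstm3 and Mgst1) had all treated mice above all controls, where 7.96% of all probes did. The same 3 genes did so at 500 ppm, where 4.41% of all probes did, and no member did at 20 ppm, where 1.49% of all probes did. The margins at 500 ppm were thin. The lowest treated mouse and highest control were 6.297 and 6.288 for Gstm1, 6.30 and 6.26 for Gstm3, and 5.85 and 5.84 for Mgst1. The second probes of Gstm1 and Mgst1 overlapped the controls at 500 and 2500 ppm. The probes of Gstm1 and Gstm3 may not be separate measurements. No probe passed limma's adjusted p of 0.05 at 20, 500 or 2500 ppm against control (0% of 43154 in each), and 602, 1174 and 3363 probes had an unadjusted p under 0.05. The same was true of 5000 against 2500 ppm and of 500 against 20 ppm (0% each), with 1939 and 2291 probes at an unadjusted p under 0.05. At 5000 ppm, 9 of the 10 members had a positive log2 difference and their median was 0.44. Over all 19289 genes with a symbol, 65.7% were positive and the median was 0.10. At 500 ppm, 6 of 10 members were positive with a median of 0.15, against 70.2% and a median of 0.10 over all genes.

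The genes whose levels over the 15 arrays were most like those of Gstm1, apart from the members, were Cbr1, Aldh3b1, Aox1, Reep6 and B9d1, with Pearson r of 0.977, 0.967, 0.947, 0.947 and 0.942. The r of their deviations from the diet means was 0.899, 0.859, 0.827, 0.712 and 0.795. Cbr1 encodes a carbonyl reductase, Aldh3b1 an aldehyde dehydrogenase and Aox1 an aldehyde oxidase. The log2 differences at 5000 ppm were 0.81 for Cbr1, 0.61 for Aldh3b1 and 1.12 for Aox1, and Aox1 passed the trend with a limma adjusted p of 0.00532. All arrays enter both sides of each r, so diet and array effects are shared.

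Among 15 other glutathione transferase genes measured of 18 listed, 1 passed the threshold at 5000 ppm and 2 on the trend, all higher. Of all probes, 0.0324% and 0.118% passed there. The alpha class gene Gsta2 rose at 5000 ppm by a log2 difference of 2.56 ± 0.21 (SE), or 5.91-fold, with a limma adjusted p of 0.000423. Gsta3, another alpha class gene, rose on the trend (limma adjusted p = 0.0294) and is named after its values were seen. Its log2 difference at 5000 ppm of 0.98 ± 0.18 (SE) was close to the 0.99 of Gstm1. The median over the 15 genes was 0.20.

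Of 15 measured genes of glutathione supply and breakdown, none passed at 5000 ppm by limma, where 2023 of all probes had an unadjusted p under 0.05. Gclc, the catalytic subunit of the rate-limiting enzyme of glutathione synthesis, had a log2 difference of 1.43 ± 0.23 (SE) and a limma adjusted p of 0.0947, and rose on the trend (limma adjusted p = 0.0294). Slc7a11, which imports cystine, was well above background on 3 of 3 arrays at 5000 ppm and on 0 of 3 control arrays. On these arrays its mean was therefore at least 4.34-fold higher at 5000 ppm. This sets the mean of the 5000 ppm arrays against the lowest signal well above background on each control array, or its own where higher. The bound covers only the measured means and carries no interval for the spread between mice, and the limma adjusted p of Slc7a11 was 0.166. The list's median was 0.37, also with Slc7a11 at this bound, and 11 of its 15 genes were positive.

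Of 8 measured genes of conjugate export, none passed at 5000 ppm or on the trend. Abcc3, a pump for glutathione and glucuronide conjugates, had the smallest p, with a log2 difference of 0.74 ± 0.18 (SE) and a limma adjusted p of 0.545. The list's median was 0.24.

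Of 15 reference Nrf2 targets, 7 passed as higher and none as lower at 5000 ppm, where 0.0324% of all probes passed. Their median was 0.95, against 0.1 over all genes. The list was chosen with earlier results of these data known. Hmox1, on the list and named after its values were seen, was at 0.15 with overlapping groups (limma adjusted p = 0.979). Nqo1, a quinone reductase, rose by 2.22 ± 0.21 (SE) on the log2 scale (limma adjusted p = 0.0013), and Gpx2, a glutathione peroxidase of epithelia, by 2.0 ± 0.24 (0.0124). Srxn1, which repairs oxidised peroxiredoxins, rose by 1.61 ± 0.19, and Txnrd1, a thioredoxin reductase, by 1.29 ± 0.16, with limma adjusted p of 0.0124 and 0.0142. Of 9 measured targets of the receptors CAR, PXR and AhR, none passed, 6 were positive and the median was 0.25. The 2 with the smallest p were negative. Cyp1a1, the classical AhR target, was at -1.03 ± 0.42 (SE) with a limma adjusted p of 0.979. All 3 5000 ppm mice lay below all controls, as in 5.09% of all probes. The other measured AhR targets of the list were positive, at 0.1 to 0.33. Cyp2c55 was at -0.91 ± 0.50 (SE), with 1 of 3 5000 ppm arrays and 3 of 3 control arrays well above background.

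**Figure D4:**
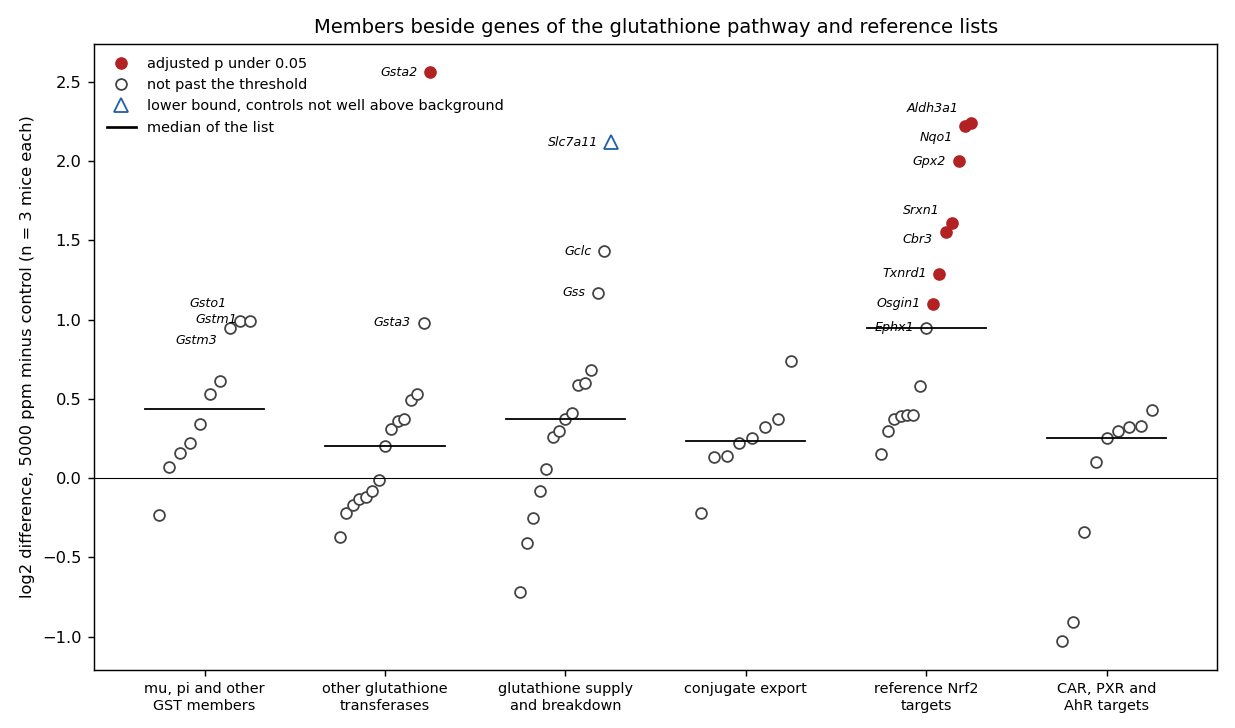
Log2 difference of 5000 ppm over control for every measured gene of 6 lists, with 1 circle a gene, filled where limma's adjusted p is under 0.05, a triangle at the lower bound for Slc7a11, and a bar for the median of the list. The members reach 0.99 with a median of 0.44 and no filled circle. The reference Nrf2 targets have 7 filled circles and the other glutathione transferases have 1, Gsta2.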

How the data were processed

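The scanner files give, per the file headers, Agilent Feature Extraction 10.7.3.1 output with background-subtracted processed signal as intensity, and the deposited table holds the authors' log2 values, which differed from log2 of the processed signal by 1 constant per array. On slide 1 the headers name mm9. RNA was from 15 lungs, labelled with Cy3 per the labels' protocols.

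Control spots and spots called outliers were left out, replicate spots were averaged on the log2 scale (56605 probes), and each array was set to a 75th percentile of 0. Probes well above background on all 3 arrays of at least 1 diet were kept (43154). Probes were named through RefSeq accessions in the GRCm38.p6 table, which gave 34675 probes a symbol. In limma 3.58.1 (R 4.3.3) all 15 arrays were fitted with 1 coefficient a diet, with contrasts, an F test and a linear contrast over ranked doses. Tests were two-sided, with Benjamini-Hochberg adjustment over the 43154 probes and a threshold of 0.05. The fit was tested on simulated data.

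The members, lists and tests were chosen with earlier results of these data known. Named genes are all members, the 5 genes most alike to Gstm1, and, of each list, up to 4 genes past the threshold against control by smallest p at 5000 ppm, or else 2. A further gene chosen this way is not reported here. Alternatives covered background correction, scaling, filters, features, blocks, weights, dose scales and left-out arrays. Normexp used median signals. Like-numbered deviations of 20 ppm and control mice correlated at 0.685, 0.347 and 0.259, but mice 2 and 3 also correlated across numbers, at 0.455 and 0.423, so these numbers may not mark shared origin. In the other contrasts not every like-numbered pair correlated above 0.1.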

Additional observations from a re-analysis of the deposited data

How the results depend on the processing

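The number of members past the threshold at 5000 ppm was 0, and it was 1 with slide as a fixed block and 3 with array weights (Gstm1, Gstm3 and Mgst1, with adjusted p of 0.0223, 0.0319 and 0.0459). It was 0 under every other alternative run, and at 20, 500 and 2500 ppm it was 0 under all of them. The number on the trend was 1 and became 2 with normexp, quantile normalization or trend and robust settings of empirical Bayes, and 3 with array weights. It became 0 with the array median as the scale, no filter, the mean of a gene's probes, slide as a fixed or random block, without the 4 arrays apart, without 20 ppm mouse 1 and control mouse 1 (chosen after seeing the data, as were the fits within a slide) and on log10 of dose. Leaving out each array in turn gave 0 to 1, with the adjusted p of Gstm1 from 0.0292 to 0.148 and its slope from 0.24 to 0.28. The call held in 5 of these 15 fits. The adjusted p of Gstm1 on the trend was 0.435 with the array median, 0.0617 with no filter, 0.637 with the mean of its probes (slope 0.13), 0.0508 with the fixed slide block and 0.803 with the random one. The cause of these changes was not tested. With the replicate block it was 0.0434, and the block changed no member's call in any contrast. Over 98 probe and contrast results and 3150 alternative values, 2950 kept sign and side of the threshold, 18 lost it, 10 passed it, and 172 of results never past it changed sign. No called result changed sign. Counts of all probes moved by more: on the trend 33 were higher and 18 lower, against 109 and 6897 with slide as a fixed block, 192 and 367 with array weights, and 5 and 0 with slide as a random block. At 5000 ppm the fixed slide block gave 80 higher and 6160 lower. All member probes were well above background on every array.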
